A study of Caenorhabditis elegans with 12 samples.

Results

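The caenacins are a family of short, glycine-rich secreted peptides of *C. elegans* that are made mainly in the epidermis. The genes described here are the 10 named *cnc-1*, *cnc-2*, *cnc-3*, *cnc-4*, *cnc-5*, *cnc-6*, *cnc-7*, *cnc-8*, *cnc-10* and *cnc-11*, chosen by symbol and not by their values from the 41420 loci of the deposited count table. Each of the 10 had a locus of its own. RNA was measured by polyA-selected RNA-seq of whole late L4 larvae of 2 strains, the wild type N2 and VC1262, which carries the deletion allele *osm-9(ok1677)*. The *osm-9* gene encodes a TRPV cation channel of sensory neurons that worms need in order to avoid hypertonic surroundings. Animals were kept for 6 h on agar with 51 mM NaCl, the control, or with 200 mM NaCl, the hypertonic condition. There were 2 libraries of N2 and 4 of *osm-9(ok1677)* at each concentration, 12 libraries in all, and the study staged the mutant to allow for its somewhat slower development.

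Caenacins belong to the antimicrobial-type peptides that the worm epidermis secretes, and they are related to the peptides of the *nlp-29* cluster. When the fungus *Drechmeria coniospora* infects the epidermis, *cnc-2* and neighbouring caenacin genes are induced through DBL-1, a neuronal TGF-β ligand that acts on the receptors SMA-6 and DAF-4 and on the Smad protein SMA-3 in the epidermis. *nlp-29* is induced in the same tissue through the p38 kinase PMK-1 and the STAT-like protein STA-2, and it is also induced by osmotic stress and by wounding.

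Library totals ran from 15949889 to 21418277 counts, so that 3 counts amounted to 0.137 to 0.186 CPM (counts scaled to the library total). All CPM values below are scaled with TMM factors, and fold changes are fitted with edgeR's quasi-likelihood test over the 15403 loci that passed a low-count filter. A gene is called when its adjusted p over all these loci is 0.05 or less. The SE of a log2 change was derived from this test, as the absolute change over the square root of its F statistic. The count of the *osm-9* locus was not lower in the mutant. Its level was 1.37 ± 0.35 higher (log2, SE) than in N2 at 51 mM NaCl (edgeR adjusted p = 0.0299) and 0.20 ± 0.32 higher at 200 mM NaCl (edgeR adjusted p = 0.774). The call at 51 mM NaCl was lost without replicate 1 or 2 of N2 (edgeR adjusted p = 0.114 and 0.218) or replicate 2 or 3 of *osm-9* there (edgeR adjusted p = 0.0507 and 0.061). The count covers the whole locus, exons outside the deletion included, so it does not check the genotype, and every difference between strains below rests on the label of the libraries. All 8 epidermis markers listed for the check (among them *lin-26*, *elt-3* and *dpy-7*) were detected in each group. In whole animals, fewer epidermal cells and less RNA per cell cannot be told apart.

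In the annotation, 6 of the 10 genes lie together within 7.84 kb on the left arm of chromosome V, at positions 1442342 to 1450183 of WBcel235, with no other protein-coding gene between them. *cnc-11*, *cnc-5*, *cnc-4* and *cnc-3* are on the plus strand, and *cnc-1* and *cnc-2* are on the minus strand. The other 4 are dispersed. *cnc-10* lies at 11183225 to 11183643 and *cnc-7* at 20394073 to 20394735 of chromosome V, *cnc-8* at 10306595 to 10306951 of chromosome X, and *cnc-6* at 1763522 to 1764902 of chromosome III. Every one of the 10 is a protein-coding gene of 2 exons, and none overlaps another annotated gene on either strand.

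The genes differed widely in level. Per kb of exon, *cnc-8* was the most abundant caenacin in N2 at 51 mM NaCl, at 55.6 ± 2.5 CPM per kb (SD, n = 2), followed by *cnc-10* at 19.3 ± 0.92 and *cnc-4* at 11.2 ± 5.2. *cnc-3* stood at 5.17 ± 2.39 and *cnc-2* at 3.28 ± 0.13 CPM per kb, and *cnc-11*, *cnc-7* and *cnc-1* were each below 0.4. The SDs of *cnc-8* and *cnc-10* do not reach each other, whereas those of *cnc-3* and *cnc-2* do. Among the mutant-labelled libraries on control agar the order was led by *cnc-4*, at 54.4 ± 19.7 CPM per kb (SD, n = 4), with *cnc-8* at 39.3 ± 9.4 and *cnc-3* at 21.98 ± 1.32; the spreads of *cnc-4* and *cnc-8* overlap. At 200 mM NaCl in the same strain *cnc-7* stood highest, at 46.3 ± 14.1 CPM per kb (SD, n = 4), within the spread of *cnc-4* at 39.1 ± 14.9 and *cnc-8* at 35.9 ± 10.03.

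**Figure D1:**
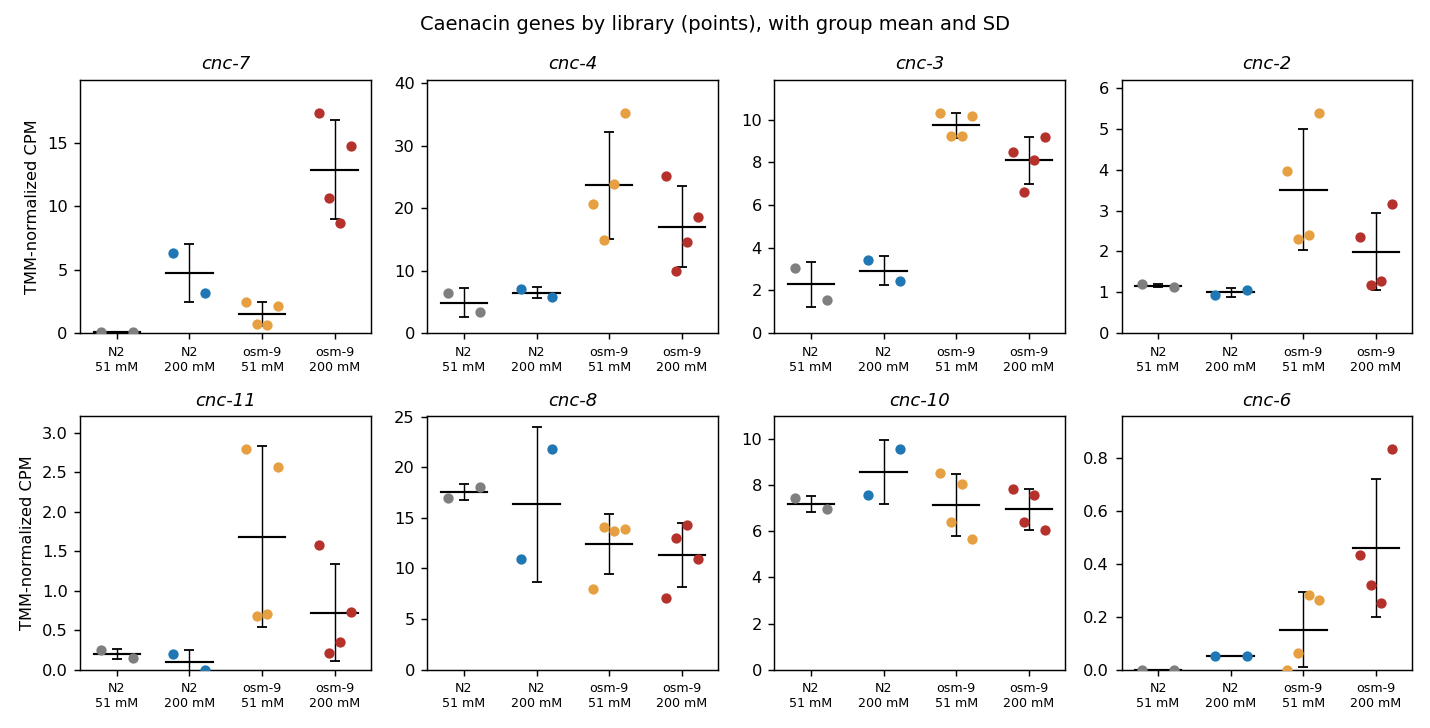
TMM-normalized CPM of 8 caenacin genes in each of the 12 libraries, with a panel and a linear axis of its own for each gene; points are libraries, horizontal bars group means and vertical bars SD. *cnc-7* stands higher at 200 mM than at 51 mM NaCl in both strains, *cnc-3* and *cnc-4* stand higher in the libraries labelled *osm-9* than in N2, and *cnc-8* and *cnc-10* were called in no comparison; *cnc-1* (at most 3 counts in a library) and *cnc-5* (no count) are left out.

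Of the 10 genes, 7 passed the low-count filter. *cnc-1*, *cnc-5* and *cnc-6* did not, and *cnc-7* and *cnc-11* passed only through the groups in which they are high. The salt response of wild type worms was examined first. *cnc-7* was the one caenacin that rose in N2, where 0.0844% of all loci tested were called higher and 0.110% lower. Its counts in N2 were 1 and 2 at 51 mM NaCl, or 0.0498 and 0.103 CPM. On 200 mM NaCl they were 124 and 62, or 6.34 and 3.14 CPM. The transcript was thus close to the limit of detection in both control libraries and plainly present in both hypertonic libraries.

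The fitted rise of *cnc-7* in N2 was 5.85 ± 0.91 on the log2 scale, or 57.7-fold (edgeR adjusted p = 0.0288). The summed counts, 186 against 3, give a ratio of 62.4 with a 95% interval of 21.03 to 305, which covers counting error only. With 2 libraries a group the call was fragile. In edgeR the adjusted p was 0.236 and 0.285 without replicate 1 or 2 of N2 at 51 mM NaCl, and 0.154 and 0.0635 without replicate 1 or 2 at 200 mM NaCl. It was 0.0622 and 0.063 without replicate 2 or 4 of the *osm-9* libraries at 200 mM NaCl, which enter through the shared estimate of spread, and the log2 change stayed between 5.26 and 6.41 throughout.

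*cnc-7* also rose with salt in the libraries labelled *osm-9(ok1677)*, where 0.221% of all loci were called higher and 0.130% lower. At 51 mM NaCl its 4 libraries read 2.47, 0.682, 0.656 and 2.15 CPM. On hypertonic agar they read 17.4, 10.7, 8.71 and 14.8 CPM. The groups did not overlap, and each replicate number rose, by ratios of 7.04, 15.6, 13.3 and 6.87. The fitted rise was 3.10 ± 0.45 on the log2 scale, or 8.55-fold (edgeR adjusted p = 0.0136), and it stayed called without any single library (edgeR adjusted p 0.0156 to 0.0495).

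Ordered by mean CPM, *cnc-7* stood at 12.9 ± 3.9 (SD, n = 4) in *osm-9* at 200 mM NaCl, 4.74 ± 2.26 (SD, n = 2) in N2 at 200 mM, 1.49 ± 0.95 (SD, n = 4) in *osm-9* at 51 mM and 0.0763 ± 0.0374 (SD, n = 2) in N2 at 51 mM. No library of a group reached into the next. The fold rise in the *osm-9* libraries was smaller than in N2 by 2.76 ± 1.08 on the log2 scale. This difference between strains in the response did not pass the test (edgeR adjusted p = 0.9999), and its N2 side rests on the 3 counts of the control. The other 6 genes tested had log2 differences in response from -0.87 (*cnc-4*) to -0.03 (*cnc-8*), with -0.62 for *cnc-3*, -0.59 for *cnc-2*, -0.29 for *cnc-10* and -0.27 for *cnc-11*. No caenacin was called for this difference by edgeR or by DESeq2, 1 of the 7 was at or under 0.05 before adjustment, and 1 of all loci tested, or 0.00649%, was called, with the larger log2 response in *osm-9*.

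The other caenacins gave no called salt response. In N2 the remaining 6 had log2 changes from -0.94 (*cnc-11*) to 0.40 (*cnc-4*), with an edgeR adjusted p of 1 for each. *cnc-8* read 17.0 and 18.1 CPM in the N2 controls and 10.9 and 21.7 CPM in the hypertonic libraries, so that its largest spread was within a group. In the *osm-9* libraries, *cnc-2* stood at 3.97, 2.29, 2.39 and 5.39 CPM on 51 mM NaCl. On 200 mM NaCl it stood at 2.35, 1.18, 1.27 and 3.17 CPM. The ratios of 200 to 51 mM NaCl by replicate number were 0.592, 0.514, 0.529 and 0.588, although the groups overlap. The fitted change of *cnc-2* was -0.82 ± 0.36 on the log2 scale, which passed before adjustment but not after (edgeR adjusted p = 0.872). *cnc-3* and *cnc-11* were also lower at 200 mM NaCl in each of the 4 numbered pairs. The ratios of *cnc-3* were 0.823, 0.713, 0.877 and 0.905, with no overlap of the groups, and its fitted log2 change was -0.27 ± 0.21 (edgeR adjusted p = 0.9999). The ratios of *cnc-11* were 0.569, 0.314, 0.504 and 0.283, and its fitted log2 change was -1.21 ± 0.66 (edgeR adjusted p = 0.9999), with overlapping groups. The fit behind these p-values does not pair libraries by replicate number. In an alternative fit with a term for replicate number, *cnc-2*, *cnc-3* and *cnc-11* were still not called for salt in *osm-9*. *cnc-4*, *cnc-8* and *cnc-10* had log2 changes of -0.47, -0.13 and -0.04 in *osm-9*, each with overlapping groups and not called. Over the 7 genes tested, the median log2 change with salt was 0.25 in N2 and -0.27 in *osm-9*, beside 0.02 and -0.01 over all loci. These 7 include *cnc-7* and *cnc-11*, which passed the filter only through groups in which they are high.

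**Figure D2:**
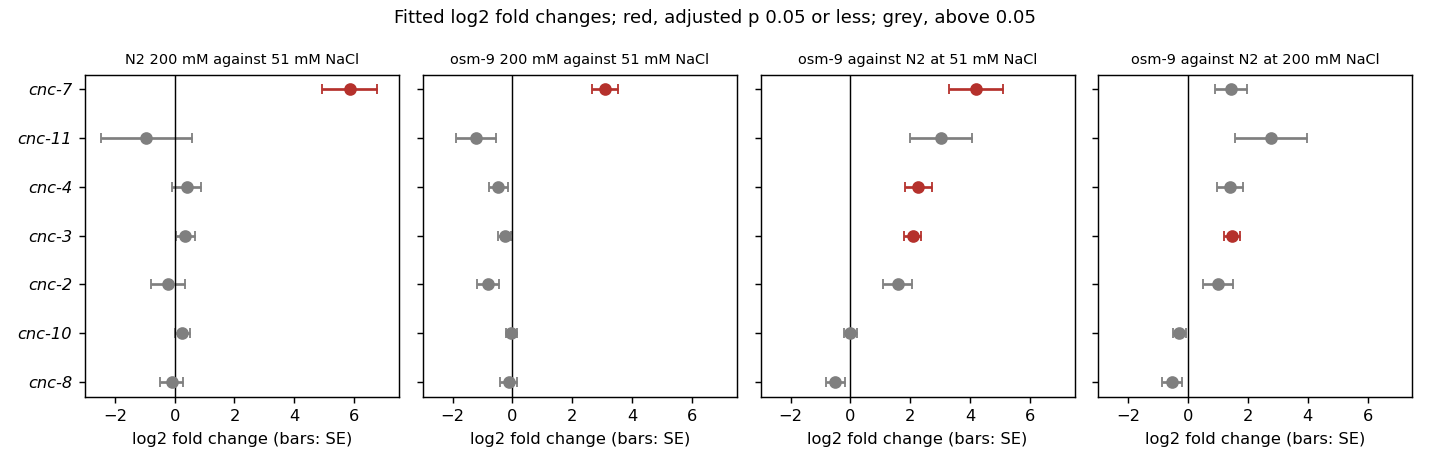
Fitted log2 fold changes of the 7 caenacin genes tested, in the 4 comparisons of groups; points are edgeR estimates, bars are SE, and red marks an adjusted p of 0.05 or less. *cnc-7* alone is red in both salt comparisons (5.85 and 3.10), and *cnc-7*, *cnc-4* and *cnc-3* are red between strains at 51 mM NaCl, with *cnc-3* alone at 200 mM.

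The related peptides of the *nlp-29* cluster were read in the same libraries. Of its 6 genes, *nlp-28* and *nlp-29* were called higher with salt in both strains and none lower. Of all loci, 0.0844% were called higher in N2 and 0.221% in *osm-9*. *nlp-29* went from 22.7 ± 0.68 to 127 ± 10.8 CPM in N2 (SD, n = 2 each), a log2 rise of 2.48 ± 0.19 (edgeR adjusted p = 0.000547). In the *osm-9* libraries it went from 15.3 ± 1.2 to 91.9 ± 17.5 CPM (SD, n = 4 each), a log2 rise of 2.58 ± 0.14 (edgeR adjusted p = 4.31e-06). *nlp-28* rose by 1.72 ± 0.25 and 2.26 ± 0.18 on the same scale (edgeR adjusted p = 0.0192 and 0.000194), and its call in N2 ended without any one of the 4 N2 libraries (edgeR adjusted p 0.107 to 0.197). The other 4 did not move alike. *nlp-27* stood lower with salt in both strains, by log2 changes of -0.89 in N2 and -0.77 in *osm-9*, with no overlap of groups and no call (edgeR adjusted p = 0.392 and 0.152). The log2 changes in N2 and *osm-9* were 2.53 and 0.94 for *nlp-30*, 0.67 and -0.24 for *nlp-31*, and 1.70 and 0.02 for *nlp-34*, none called by edgeR. For each of these the N2 libraries at 200 mM NaCl lay above those at 51 mM, whereas the *osm-9* groups overlapped. Before adjustment all 6 cluster genes in N2 and 4 in *osm-9* were at or under 0.05, beside 764 and 858 of 15403 loci. DESeq2 called 3 of the 6 in each strain, beside 129 and 202 loci. The fitted log2 rise of *cnc-7* was larger than that of *nlp-28* or *nlp-29* in both strains, and the difference between the genes was not tested. *gpdh-1*, which encodes the glycerol-making enzyme used as the marker of hypertonic stress, rose by 2.01 ± 0.51 in N2 (edgeR adjusted p = 0.265) and by 2.07 ± 0.37 in *osm-9* (edgeR adjusted p = 0.0382), also on the log2 scale. The *osm-9* call of *gpdh-1* was lost without any one of 10 libraries, at most to an edgeR adjusted p of 0.124 (without replicate 1 of *osm-9* at 51 mM NaCl).

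**Figure D3:**
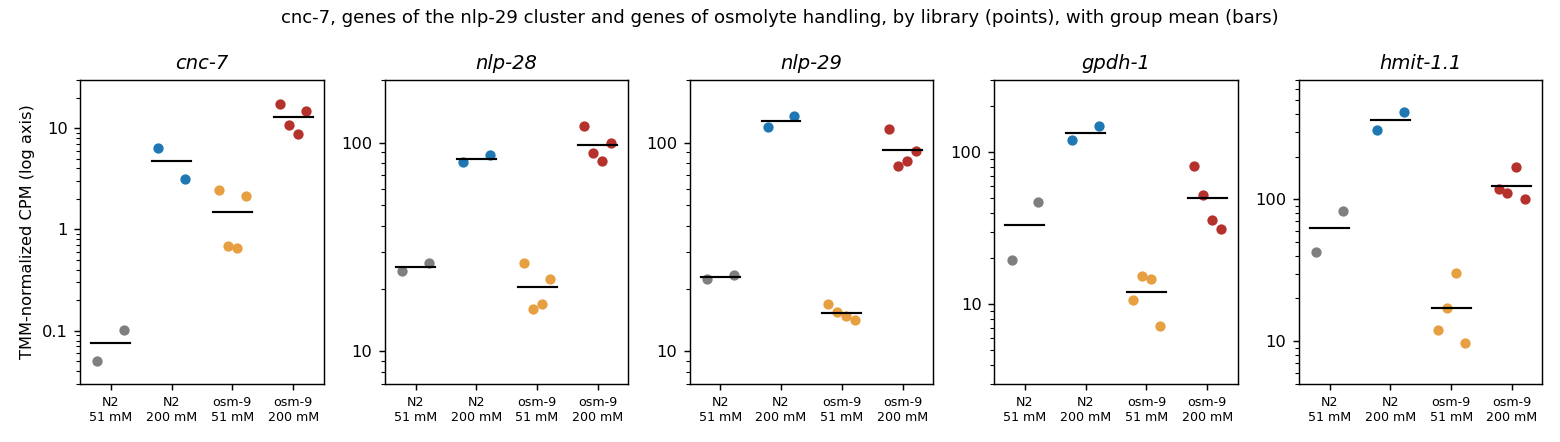
TMM-normalized CPM, on a log axis, of *cnc-7*, of *nlp-28* and *nlp-29* from the *nlp-29* cluster, and of *gpdh-1* and *hmit-1.1*, which serve glycerol synthesis and inositol transport; points are the 12 libraries and bars are group means. In each panel the libraries at 200 mM NaCl lie above those at 51 mM NaCl of the same strain, and *cnc-7* starts from 0.0498 and 0.103 CPM in N2.

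The strains were then compared on control agar. Libraries labelled *osm-9(ok1677)* held more *cnc-3*, *cnc-4* and *cnc-7* than N2 at 51 mM NaCl, so that 3 of the 7 genes tested were called higher and none lower, where 7.64% of all loci were called higher and 4.63% lower. The N2 controls are the libraries that also serve as the base of the N2 salt response above. The median log2 difference of the 7 was 2.08, beside 0.05 over all loci. The 7 include *cnc-7* and *cnc-11*, which passed the filter only through groups in which they are high. Neither the median nor the count of calls is therefore that of an unselected set.

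*cnc-3* was the steadiest of these. It read 3.04 and 1.54 CPM in N2 and 10.3, 9.24, 9.23 and 10.2 CPM in the *osm-9* libraries. The lowest *osm-9* library was well above the higher N2 library, and the 4 lay close together. The difference was 2.08 ± 0.29 on the log2 scale, or 4.24-fold (edgeR adjusted p = 0.0013), and it stayed called when any single library was left out (edgeR adjusted p 0.00203 to 0.0229). *cnc-4*, the neighbouring gene on the same strand, read 6.47 and 3.29 CPM in N2 and 20.6, 14.9, 23.8 and 35.2 CPM in *osm-9*. Here too the groups did not overlap, with a wider spread among the *osm-9* libraries. Its difference was 2.27 ± 0.45 on the log2 scale, or 4.84-fold (edgeR adjusted p = 0.00933); without replicate 2 of N2 at 51 mM NaCl it was 1.81 and no longer called (edgeR adjusted p = 0.122).

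The cluster genes *cnc-2* and *cnc-11* stood higher in the libraries labelled *osm-9* without passing the test. *cnc-2*, the caenacin best known as a target of DBL-1 signaling, read 1.19 and 1.13 CPM in N2 against the 4 values from 2.29 to 5.39 CPM in *osm-9*, with no overlap. The log2 difference was 1.59 ± 0.49 (edgeR adjusted p = 0.0538), and it was called without replicate 2 of *osm-9* at 51 mM or replicate 4 at 200 mM NaCl (edgeR adjusted p = 0.0455 and 0.0459). Over left-out libraries it ran from 1.31 to 1.75, and other omissions raised the adjusted p above that of the full fit. *cnc-11* had 5 and 3 counts in N2 and 61, 11, 15 and 49 counts in *osm-9*. The log2 difference was 3.03 ± 1.03 (edgeR adjusted p = 0.0756). The 4 measured genes of the cluster had fitted differences of 1.59 to 3.03 on the log2 scale. The top end is *cnc-11*, which passed the filter only through *osm-9* libraries, so its excess there carries no independent weight. *cnc-1* and *cnc-5* between them gave too few counts to compare.

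**Figure D4:**
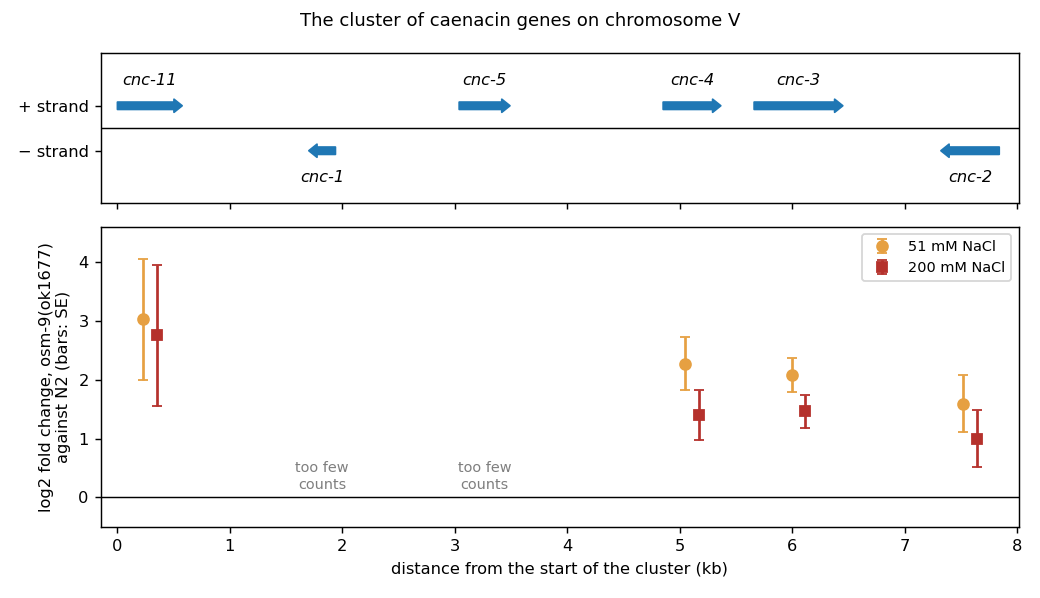
Upper panel, the 6 caenacin genes of the chromosome V cluster drawn to scale as arrows by strand, along the distance in kb from the start of the cluster; lower panel, the fitted log2 difference between libraries labelled *osm-9(ok1677)* and N2 at 51 mM (circles) and 200 mM NaCl (squares), with SE. The measured genes at both ends and in the middle lie above 0 at both concentrations, from 1.001 (*cnc-2* at 200 mM) to 3.03 (*cnc-11* at 51 mM), and only *cnc-3* and *cnc-4* at 51 mM and *cnc-3* at 200 mM were called. *cnc-11* passed the low-count filter only through libraries labelled *osm-9*.

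Outside the cluster, *cnc-7* was already higher in the *osm-9* libraries without added salt. The 120 counts of the 4 mutant libraries against 3 in N2 give a ratio of 20.2, with a 95% counting interval of 6.74 to 99.1. The fitted log2 difference was 4.20 ± 0.90, or 18.3-fold (edgeR adjusted p = 0.0138), and leaving out replicate 1 or 2 of N2 at 51 mM NaCl ended the call (edgeR adjusted p = 0.103 and 0.105). *cnc-8* and *cnc-10* were not called. *cnc-8* read 7.95, 14.1, 13.7 and 13.9 CPM in *osm-9*, all below the N2 controls at 17.0 and 18.1, with a log2 difference of -0.50 ± 0.33 (edgeR adjusted p = 0.340). *cnc-10* read 8.49, 6.39, 8.02 and 5.66 CPM in *osm-9* and 7.42 and 6.93 CPM in N2, which lie inside that range, with a log2 difference of -0.01 ± 0.22 (edgeR adjusted p = 0.989).

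On 200 mM NaCl only *cnc-3* was called between strains, where 4.13% of all loci were called higher and 2.30% lower. It read 3.43 and 2.43 CPM in N2 and 8.49, 6.59, 8.10 and 9.20 CPM in the libraries labelled *osm-9*. The difference was 1.46 ± 0.28 on the log2 scale, or 2.76-fold (edgeR adjusted p = 0.0103), and without replicate 2 of N2 at 200 mM NaCl it was 1.18 and not called (edgeR adjusted p = 0.142). *cnc-4* read 7.06 and 5.83 CPM in N2 against 25.1, 9.86, 14.5 and 18.6 CPM in *osm-9*, a log2 difference of 1.401 ± 0.431 (edgeR adjusted p = 0.0755). The groups did not overlap. Without replicate 2 of *osm-9* at 200 mM NaCl the difference of *cnc-4* was 1.59 and called (edgeR adjusted p = 0.049). That omission gave the largest difference and the lowest adjusted p over left-out libraries. Other omissions lowered the difference below that of the full fit or raised the adjusted p above it, so the difference is not taken as called.

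Of the others at 200 mM NaCl, *cnc-7* differed by 1.44 ± 0.53 on the log2 scale (edgeR adjusted p = 0.124), again with every *osm-9* library above both N2 libraries. *cnc-2* differed by 1.001 ± 0.491 and *cnc-11* by 2.76 ± 1.199 (edgeR adjusted p = 0.245 and 0.187). The value of *cnc-11* ran from 1.74 to 6.85 over left-out libraries, the ends being those without replicate 2 and without replicate 1 of N2 at 200 mM NaCl, which had 0 and 4 counts. *cnc-8* and *cnc-10* had log2 differences of -0.53 and -0.30 (edgeR adjusted p = 0.369 and 0.437), with overlapping groups, and that of *cnc-8* ran from -0.95 to -0.02 over left-out libraries. The median over the 7 genes was 1.401, beside 0.05 over all loci, with the same limit from *cnc-7* and *cnc-11* as at 51 mM NaCl. The comparisons at 51 and 200 mM NaCl use separate libraries, although *osm-9* libraries of one replicate number deviated together.

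The 4 *osm-9* replicates did not behave alike. At 51 mM NaCl, *cnc-2*, *cnc-7* and *cnc-11* were all higher in replicates 1 and 4 than in replicates 2 and 3. Relative to the mean log2 level of the 4 libraries, *cnc-11* stood at 1.03 and 0.92 in replicates 1 and 4 and at -0.997 and -0.953 in replicates 2 and 3. *cnc-3* stayed within 0.09 of its mean on that scale. *cnc-4*, *cnc-8* and *cnc-10* did not follow the split at 51 mM NaCl. *cnc-8* was lowest in replicate 1 (-0.60) and *cnc-10* in replicate 4 (-0.32), and *cnc-4* stood at -0.13 in replicate 1 and 0.08 in replicate 3. At 200 mM NaCl *cnc-2*, *cnc-7* and *cnc-11* were again higher in replicates 1 and 4 than in 2 and 3, as were *cnc-3* and *cnc-4*. There *cnc-11* stood at 1.54 and 0.42 in replicates 1 and 4 and at -1.34 and -0.62 in replicates 2 and 3.

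The summed level of listed genes of the molting cycle, during which the epidermis makes a new cuticle, moved opposite to *cnc-2*, *cnc-7* and *cnc-11* among these libraries. The summed level of 16 such genes (among them *nhr-23*, *noah-1* and *mlt-10*) was 764, 1454, 1575 and 650 CPM in *osm-9* replicates 1 to 4 at 51 mM NaCl, so that replicates 2 and 3 were the high ones. On hypertonic agar it was 420, 877, 1381 and 573 CPM. In N2 it was 249 and 297 CPM at 51 mM and 351 and 543 CPM at 200 mM NaCl. None of the 16 was at 0 in a group. Between strains 9 of the 16 were called higher at 51 mM NaCl, where 7.64% of all loci were, with a median log2 difference of 2.43 over the list. At 200 mM NaCl 2 were, where 4.13% of all loci were, with a median of 1.13. At each concentration 15 of the 16 had a log2 difference above 0. The exception was *nhr-23*, at -0.08 and -0.37 and not called. It varied little among the *osm-9* libraries at 51 mM NaCl, from 39.3 to 45.1 CPM. The list was chosen with earlier results of these data known. The paper already reports *lin-42*, *mlt-8*, *acn-1* and *fbn-1* as upregulated in the mutant at 51 mM NaCl, and *fbn-1* and *noah-2* at 200 mM. These list counts therefore carry no independent weight. The paper's threshold was an edgeR p-value of 0.05 or less, with no adjustment named. By the adjusted p used here *lin-42* and *mlt-8* were not called at 51 mM NaCl (edgeR adjusted p = 0.094 and 0.076). The largest called differences at 51 mM NaCl were 3.13 (*wrt-10*), 2.81 (*mlt-11*), 2.68 (*ptr-4*) and 2.60 (*noah-2*) on the log2 scale, and *noah-2* and *fbn-1* were the pair called at 200 mM NaCl. Without replicate 2 of N2 at the concentration compared, all of these but *wrt-10* lost the call. *mlt-11* and *ptr-4* also lost it without replicate 1 of N2 at 51 mM NaCl. At 200 mM NaCl, *fbn-1* also lost it without replicate 1 of N2 or replicate 1 or 3 of *osm-9* there (edgeR adjusted p = 0.0546 and 0.0602 for the *osm-9* omissions). The call of *noah-2* at 200 mM NaCl was lost without most single libraries, those of *osm-9* included (edgeR adjusted p 0.051 to 0.0757 for the *osm-9* omissions). The summed level of the 8 epidermis markers was 234.99 to 246 CPM in N2 and 306 to 779 CPM in *osm-9* at 51 mM NaCl, and 214 to 321 and 283 to 541 CPM at 200 mM NaCl. *dpy-7*, a cuticle collagen gene in a locus joined with *glb-16*, was the 1 of these called, at 51 mM NaCl, with a log2 difference of 2.71 (without replicate 1 or 2 of N2 at 51 mM NaCl, edgeR adjusted p = 0.0577 and 0.136). The members did not go one way. The cuticle collagen genes *rol-6* and *col-10* had log2 differences of 2.46 and 1.79 at 51 mM NaCl, whereas the regulators *elt-1*, *elt-3* and *lin-26* (in a locus joined with *lir-1*) had -0.31, -0.41 and 0.23 there and -0.71, -0.33 and 0.33 at 200 mM NaCl, none called. The part of molting stage or of epidermal RNA content in the strain differences of the caenacins was not tested.

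**Figure D5:**
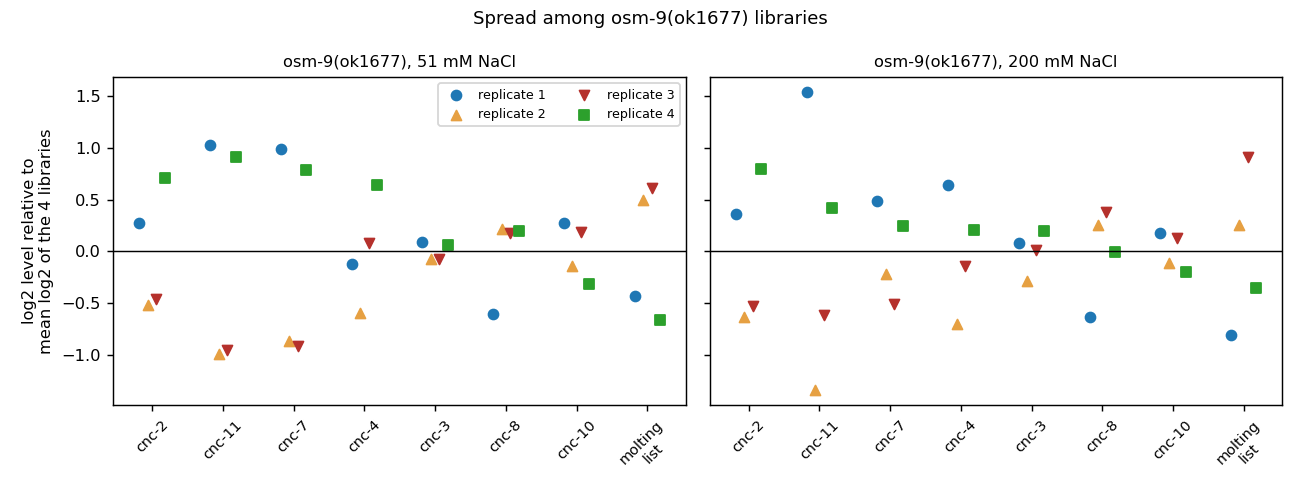
Level of each of the 7 measured caenacin genes, and of the summed molting list, in the 4 *osm-9(ok1677)* libraries at 51 mM (left) and 200 mM NaCl (right), as log2 relative to the mean log2 level of those 4 libraries; symbols mark replicate numbers. At 51 mM NaCl replicates 1 and 4 are above 0 and replicates 2 and 3 below 0 for *cnc-2*, *cnc-11* and *cnc-7*, the molting list shows the opposite order, and *cnc-3* lies within 0.09 of 0.

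The pathways that act upstream of these peptides were read from 2 lists of genes. Of 12 genes of DBL-1 signaling, none was called with salt in either strain by edgeR or by DESeq2, where edgeR called 30 and 54 of 15403 loci, and 1 in each strain had an unadjusted p of 0.05 or less, as did 764 and 858 of 15403 loci. Between strains at 51 mM NaCl 2 of the 12 were called higher, where 7.64% of all loci were. These were *lon-1*, an epidermal gene that DBL-1 signaling represses, by 0.96 ± 0.19 on the log2 scale (edgeR adjusted p = 0.00828), and the locus that joins the receptor gene *daf-4* with C05D2.11, by 0.44 ± 0.12 (edgeR adjusted p = 0.0347). *lon-1* alone was called at 200 mM NaCl, where 4.13% of all loci were called higher, by 0.84 ± 0.19 (edgeR adjusted p = 0.0218). Without replicate 2 of N2 at the concentration compared, *lon-1* was at 0.62 and 0.63 and not called (edgeR adjusted p = 0.134 and 0.23). The call of *daf-4* was lost without any one of 6 libraries, at most to an edgeR adjusted p of 0.238, and that of *lon-1* at 200 mM NaCl also without replicate 1 of N2 or replicate 3 or 4 of *osm-9* there (edgeR adjusted p 0.0525 to 0.0783). The ligand gene *dbl-1* had log2 differences of 0.35 and 0.13 at 51 and 200 mM NaCl, and the Smad gene *sma-3* of 0.66 and 0.67, none called (edgeR adjusted p 0.0868 to 0.745).

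Of 13 genes of the p38 and STA-2 pathway, from *dcar-1*, a receptor gene, to *pmk-1* and *sta-2*, none was called by edgeR in any comparison. Those with an unadjusted p of 0.05 or less numbered 0 for salt in either strain, 3 between strains at 51 mM and 2 at 200 mM NaCl, beside 4480 and 3677 of 15403 loci. DESeq2 called 1 of the 13 at 51 mM NaCl, beside 2848 of 15403 loci, and 0 elsewhere. Within the *nlp-29* cluster itself the strains differed in mixed directions at 51 mM NaCl, where 7.64% of all loci were called higher and 4.63% lower. *nlp-30* and *nlp-31* were higher in the *osm-9* libraries by 1.64 ± 0.46 and 0.91 ± 0.18 on the log2 scale (edgeR adjusted p = 0.0406 and 0.00955), and *nlp-29* was lower, at -0.56 ± 0.16 (edgeR adjusted p = 0.0411). Each of these calls was lost without replicate 1 or 2 of N2 at 51 mM NaCl (edgeR adjusted p 0.0733 to 0.214). Those of *nlp-29* and *nlp-30* were also lost without any one of 4 or 5 *osm-9* libraries. *nlp-27*, *nlp-28* and *nlp-34* had log2 differences of -0.68, -0.32 and 1.54 at 51 mM NaCl, none called. None of the 6 was called between strains at 200 mM NaCl by edgeR. DESeq2 called 1, and 2 had an unadjusted p of 0.05 or less, beside 1817 and 3677 of 15403 loci.

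The 3 caenacins under the filter were near or at the limit of detection. *cnc-6* gave 0 and 0 counts in N2 at 51 mM and 1 and 1 at 200 mM NaCl. In the *osm-9* libraries it gave 0, 1, 6 and 5 counts at 51 mM and 9, 6, 5 and 16 counts at 200 mM NaCl. At 200 mM NaCl the 36 counts of *osm-9* against 2 in N2 give a ratio of 9.01, with a 95% counting interval of 2.32 to 77.2. At 51 mM NaCl the 4 *osm-9* libraries gave 12 counts against 0 in N2, with a mean of 0.151 ± 0.141 CPM (SD, n = 4), and no fold is given. In the fit without a low-count filter neither difference was called (edgeR adjusted p = 0.159 at 51 mM and 0.143 at 200 mM NaCl). *cnc-1* gave 1 count in a single N2 library, and 3, 0, 0 and 0 counts in *osm-9* at 51 mM and 3, 0, 1 and 1 at 200 mM NaCl. *cnc-5* had no count in any of the 12 libraries, which allows up to 0.137 to 0.186 CPM per library and does not show that the gene is silent.

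For the 3 caenacins of highest mean CPM, the loci with the most similar pattern of log2 CPM over the 12 libraries were listed, among the 15403 tested. *cnc-4* was most like *best-20* (Pearson r = 0.98), Y53G8B.2 (0.97) and K02E7.11 (0.96), and next like the joined locus of R166.6 and *mnk-1* (0.96) and ZK1240.1 (0.95). *cnc-8* was most like F35C5.1 (r = 0.96), W01B11.1 (0.94) and W05B2.3 (0.92), before *rpl-24.1* and *phb-1* (both 0.91). The correlates of *cnc-10* were weaker, led by PDB1.1 (r = 0.84), with F59A2.2 and *acy-1* at 0.82 and F52H2.3 and *unc-104* at 0.81. No other caenacin was among these 15 loci. The libraries share strain, salt and depth differences, so these correlations are descriptions only.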

How the data were processed

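The deposited table holds raw counts per locus, which the authors made from paired polyA reads with TopHat 1.4.1 (genome WS235) and Cufflinks 2.0.1 on Ensembl 71 genes; per the submitters' notes they tested with edgeR 3.2.4. Whether counting used strand is not given in the sources used here. Loci were matched by symbol, and positions and exon lengths come from WBcel235 gene models. Here 4 group means were fitted to all 12 libraries with edgeR 4.0.16 in R 4.3.3 (TMM, filterByExpr with minimum count 10 and total 15, quasi-likelihood F-test, Benjamini-Hochberg over 15403 loci). DESeq2 1.42.0, edgeR's exact test, other filters, RLE factors, a replicate block and left-out libraries were alternatives. Same-numbered *osm-9* libraries deviated together across NaCl concentrations (r 0.52 to 0.81 over loci for the 4 numbers), so those numbers pair them; no call of a caenacin in that comparison changed under the block. The labels do not say which libraries came from separate cultures, so p-values measure the spread between these libraries.

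The genes and lists were chosen with earlier results of these data known. By rule the text names all 10 caenacins, the *nlp-29* cluster, up to 4 called genes per list by size of change, *gpdh-1* and *osm-9*, and the 5 loci most like each of the 3 caenacins of highest mean CPM. Among listed markers of intestine (7) and body wall muscle (5) none was called in any comparison. Of neurons (6) *unc-31* was higher in the mutant at 51 mM NaCl. Of germ line (5) *pgl-1* and *syp-1* were lower there, and *syp-1* also at 200 mM. Between strains 7.64% of all loci were called higher and 4.63% lower at 51 mM, and 4.13% and 2.30% at 200 mM NaCl. The call of *unc-31* was lost without replicate 1 or 2 of N2 or replicate 3 of *osm-9* at 51 mM NaCl. That of *pgl-1* was lost without replicate 1 or 2 of N2 there.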

Additional observations from a re-analysis of the deposited data

Results flagged for a closer look

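Among the 18 groups of 4 libraries examined for a library far from the others, 2 stood out, where such a rule takes about 1 group in 20 of continuous values by chance. *cnc-8* in *osm-9(ok1677)* at 51 mM NaCl was lowest in replicate 1, at 7.95 CPM, where the other 3 libraries lay between 13.7 and 14.1 CPM. *cnc-8* was also lowest in replicate 1 at 200 mM NaCl, at 7.05 CPM against 10.9 to 14.3 CPM. *cnc-1* in *osm-9(ok1677)* at 51 mM NaCl was highest in replicate 1, at 0.137 CPM, which is 3 counts where the other 3 libraries had 0; any lone library with a count would stand out in this way.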

How the results depend on the processing

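The counts of called caenacins were recomputed under each alternative. The salt response in N2 (1 called) fell to 0 with at least 10 counts asked of every library, which removes *cnc-7* and *cnc-11*, and to 0 with only the 2 groups fitted (edgeR adjusted p of *cnc-7* 0.0781); left-out libraries gave 0 to 1. The salt response in *osm-9* (1 called) fell to 0 under the same count filter. Between strains at 51 mM NaCl (3 called), DESeq2 gave 5, edgeR's exact test 5, the replicate block 6 (5 higher and, with *cnc-8*, 1 lower), omission of *osm-9* replicates 2 and 3 gave 5, and left-out libraries gave 1 to 4. At 200 mM NaCl (1 called), DESeq2 gave 2, the exact test 3, the replicate block 5 (4 higher, 1 lower), omission of replicates 2 and 3 gave 5 and of replicates 1 and 4 gave 0, and left-out libraries gave 0 to 2. The *osm-9* replicates were left out in pairs that the values themselves had shown to differ, so those counts carry no independent weight. Same-numbered libraries correlated across strains (r 0.39 and 0.37 at 51 mM, 0.47 and 0.19 at 200 mM NaCl) and within N2 (0.52), but only 2 numbers are shared and no label pairs them, so the replicate block is not taken as a pairing there. The difference between strains in response stayed at 0.

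Over all loci the replicate block called 222 for salt in N2 against 30, 382 against 54 in *osm-9*, 4054 against 1890 between strains at 51 mM and 2938 against 990 at 200 mM NaCl. DESeq2 called 129, 202, 2848 and 1817, and the exact test of edgeR called 121, 179, 1852 and 1763. Without *osm-9* replicates 2 and 3, 2570 and 2122 of 15077 loci were called between strains at 51 and 200 mM NaCl. Without replicates 1 and 4, 2137 and 734 of 15102 were.

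Uncalled changes near 0 turned sign. The log2 change of *cnc-10* between strains at 51 mM NaCl was 0.0252 with 10 counts in every library, 0.0357 under the block, 0.0197 without replicates 1 and 4, and -0.115 to 0.0915 over left-out libraries. For *cnc-8*, the difference in response was 0.0545 under the block, 0.0685 without replicates 1 and 4, and -0.44 to 0.56 over left-out libraries. Over left-out libraries the N2 salt changes ran from -0.0481 to 0.923 (*cnc-3*), -0.00295 to 0.97 (*cnc-4*), -0.69 to 0.31 (*cnc-8*) and -5.04 to 0.0132 (*cnc-11*). The *osm-9* salt changes ran from -0.30 to 0.0399 (*cnc-8*) and -0.14 to 0.0526 (*cnc-10*), and the difference in response of *cnc-11* from -1.21 to 3.82. Of 695 recomputed gene values 634 kept direction and side of the threshold; why others did not was not tested, beyond the fewer genes or samples in some fits. Leaving out an N2 library leaves 1, assumed to vary like the other groups.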
